A study of Homo sapiens with 24 samples.

Results

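The genes described here are 9 members of the cadherin and cell-surface adhesion group, chosen by symbol from the 14119 genes of the deposited table: the classical cadherins CDH1 and CDH2, the desmosome genes DSG2, DSC2 and DSP, the protocadherin PCDH17, and EPCAM, L1CAM and NECTIN3. All 9 were in the table. The samples were tumours grown in mice from COLO320DM, a colorectal adenocarcinoma cell line, and their RNA was sequenced in 8 groups of 3 libraries each, 24 libraries in all. A group is named by its hairpin (shNT or sh1487), by whether a cDNA was added, and by whether the mice received doxycycline, and every library is labelled 72 hours. The 8 groups are thus shNT and sh1487, each without and with the cDNA, each without and with doxycycline, and each pairing of hairpin and cDNA is called a line here. What sh1487 targets and which cDNA was added are not in the labels. These also do not say whether a line was 1 clone, whether the 3 libraries of a group came from separate tumours, or what strain and age the mice were. The p-values therefore measure the spread between these libraries, which may be technical.

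Classical cadherins are transmembrane proteins that bind the same cadherin on a neighbouring cell, and inside the cell they bind β-catenin and plakoglobin (JUP), which lead to α-catenin and actin. Desmosomes use desmogleins and desmocollins as their adhesive cadherins, and plakoglobin, plakophilins and desmoplakin (DSP) to reach keratin filaments. β-catenin has a further role as partner of TCF/LEF factors in the nucleus, where it carries the Wnt signal that is commonly active in colorectal cancer. The title of the series names β-catenin and TCF as its subject.

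CTNNB1, the gene of β-catenin, was therefore read first in all groups. It stood at 226 ± 10.4 CPM (SD, n = 3) in sh1487 without doxycycline and at 43.3 ± 1.99 CPM with it, a log2 change of -2.36 (adjusted p = 5.44e-13 in limma). In the sh1487 line with the cDNA it stood at 507 ± 41.3 CPM without and 594 ± 21.2 CPM with doxycycline. The shNT line held 257 ± 4.87 and 310 ± 16.6 CPM, and the shNT line with the cDNA 658 ± 117 and 471 ± 130 CPM. CPM here is a read count scaled to the library's effective size, and a call means an adjusted p under 0.05 from limma on log2(CPM + 1), fitted over all 13832 genes that passed the filter on low values. A log2 change is on that scale, which understates the change of genes near or below 1 CPM, so ratios of mean CPM are given beside many changes. A difference of changes has no such ratio, and log2 values from edgeR, which does not add 1 CPM, are given for the members most affected.

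The libraries held 44004848 to 80202279 reads, so that 3 reads correspond to 0.0368 to 0.0711 CPM and precision is limited for members under about 1 CPM. Mitochondrial genes took 9.98% to 21.5% of the reads, the most in shNT with cDNA and doxycycline, replicate 3. That library and replicate 3 of the same line without doxycycline stand apart, and results on the shNT line with cDNA are given with and without them where the call moves. Colorectal epithelial markers, 5 of 7 in the table, summed to 1585 to 1886 CPM in shNT and 2028 to 2325 CPM in sh1487 without doxycycline. Most of that sum was CDX2, at 1730 ± 166 CPM in shNT and 1944 ± 149 CPM in sh1487, while KRT8 stood at 7.14 ± 0.13 CPM in shNT and 148 ± 2.3 CPM in sh1487 without doxycycline. With doxycycline the epithelial sum was 1747.3 to 1884.9 CPM in shNT and 1580.5 to 1659.6 CPM in sh1487, both without cDNA. KRT19 and CDX1 were not analysed here. Neuroendocrine markers, 4 of 7 in the table, summed to 13.3 to 17.7 CPM over the libraries of both shNT lines and to 220 to 366 CPM over those of both sh1487 lines. In sh1487 without cDNA that sum was 247 to 267 CPM without and 345 to 366 CPM with doxycycline. Fibroblast and pericyte markers, 6 of 8 in the table, summed to 110.2 to 154.97 CPM in the shNT lines and to 52.1 to 82.6 CPM in the sh1487 lines. In sh1487 without cDNA they summed to 68.3 to 72.9 CPM without and 52.1 to 57.4 CPM with doxycycline. Of endothelial markers 1 of 7 was in the table, at 0.0669 to 1.33 CPM, of leukocyte markers 2 of 7, at 25.2 to 58.2 CPM summed, and of erythroid markers 2 of 4, at 1.11 to 17.6 CPM summed. The part of these differences in the results below was not tested. How reads from the host mouse were treated is not given in the sources used here, and in bulk RNA fewer cells of a type and less RNA per cell cannot be told apart.

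Promoters are shown for CDH2, DSC2, DSG2, PCDH17 and L1CAM, the members whose levels differ most between lines or with doxycycline in the results below. Each is the 300 bases from 250 before to 50 after a RefSeq start site on build GRCh38.p14, and 7 of the 9 members had an entry, 10 entries in all. CDH2 is shown at chr18:28177081-28177380 on the minus strand, DSC2 at chr18:31102372-31102671 on the minus strand, DSG2 at chr18:31497927-31498226 on the plus strand, PCDH17 at chr13:57631494-57631793 on the plus strand and L1CAM at chrX:153875895-153876194 on the minus strand. CDH2, DSC2 and L1CAM have 2 entries each, of which 1 is shown. Capitals mark the E-box CACCTG on either strand, the core bound by SNAI and ZEB repressors.
CDH2: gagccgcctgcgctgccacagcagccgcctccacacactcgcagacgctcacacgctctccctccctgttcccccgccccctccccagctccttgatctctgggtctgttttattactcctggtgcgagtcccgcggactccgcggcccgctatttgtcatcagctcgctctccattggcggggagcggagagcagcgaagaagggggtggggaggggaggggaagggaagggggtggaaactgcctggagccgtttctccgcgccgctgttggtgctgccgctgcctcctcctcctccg
DSC2: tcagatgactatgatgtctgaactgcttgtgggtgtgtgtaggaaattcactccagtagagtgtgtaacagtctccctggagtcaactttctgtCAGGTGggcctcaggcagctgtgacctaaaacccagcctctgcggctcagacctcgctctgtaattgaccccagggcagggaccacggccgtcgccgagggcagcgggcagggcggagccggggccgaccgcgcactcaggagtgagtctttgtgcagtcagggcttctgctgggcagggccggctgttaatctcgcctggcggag
DSG2: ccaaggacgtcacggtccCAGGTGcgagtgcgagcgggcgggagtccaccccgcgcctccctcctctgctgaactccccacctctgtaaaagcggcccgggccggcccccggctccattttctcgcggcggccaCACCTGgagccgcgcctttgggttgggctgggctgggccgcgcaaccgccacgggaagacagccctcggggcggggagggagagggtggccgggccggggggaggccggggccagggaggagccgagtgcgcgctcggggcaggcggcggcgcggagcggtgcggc
PCDH17: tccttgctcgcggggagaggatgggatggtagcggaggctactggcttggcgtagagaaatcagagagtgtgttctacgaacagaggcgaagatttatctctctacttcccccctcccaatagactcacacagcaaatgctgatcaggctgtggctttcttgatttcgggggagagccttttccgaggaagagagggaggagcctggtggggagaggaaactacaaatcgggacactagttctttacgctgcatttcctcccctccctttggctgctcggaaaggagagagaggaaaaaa
L1CAM: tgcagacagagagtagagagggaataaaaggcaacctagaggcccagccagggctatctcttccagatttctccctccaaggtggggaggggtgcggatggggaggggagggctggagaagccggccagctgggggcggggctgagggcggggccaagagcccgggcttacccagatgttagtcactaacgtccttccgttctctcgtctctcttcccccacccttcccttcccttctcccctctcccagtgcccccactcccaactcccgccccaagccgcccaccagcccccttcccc

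The E-box occurred 2 times in the DSG2 entry, at 232 and 116 bases before the start site, and 1 time in the DSC2 entry shown, at 156 bases before it. The DSP entry held it 2 times, and the other 7 entries of members held none. Of all 35116 RefSeq promoters of this length, 20.59% held it. The TCF/LEF motif CTTTGAT, searched on both strands, was in none of the 10 entries and in 2.617% of all promoters. Of the entries shown, PCDH17 has 11 CpG dinucleotides, L1CAM 10, DSC2 15, CDH2 23 and DSG2 36, against a median of 14 over all promoters. The entries not shown have 8 for L1CAM, 22 for DSC2 and 4 for CDH2. The L1CAM windows lie inside the gene, which starts at 153886174 on the minus strand. These letter matches describe the windows only.

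Per kb of gene length, the desmosome genes DSG2 and DSP were the highest of the group in every line without doxycycline. In shNT without doxycycline DSG2 stood at 74.5 CPM per kb and DSP at 43.0, followed by PCDH17 at 8.48, NECTIN3 at 5.73 and DSC2 at 5.13. EPCAM stood at 0.816, CDH1 at 0.0534, CDH2 at 0.0268 and L1CAM at 0.0154 CPM per kb, with few reads behind the last 3 of these. In sh1487 without doxycycline DSG2 (77.4 CPM per kb), DSP (35.5) and NECTIN3 (4.23) led, and L1CAM (0.725) stood above EPCAM (0.225), DSC2 (0.102), PCDH17 (0.0536), CDH1 (0.0368) and CDH2 (0.0339). Both lines thus had a desmosomal cadherin, and not a classical one, as their most abundant adhesion transcript of the group.

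**Figure D1:**
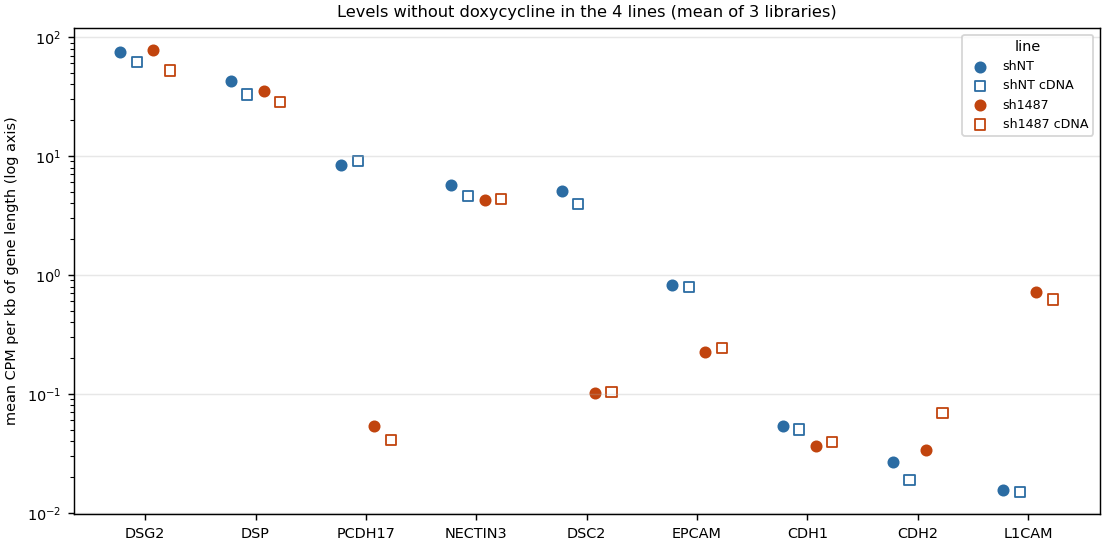
Mean CPM per kb of gene length (log axis) of the 9 genes in the 4 lines without doxycycline, 3 libraries each. Blue marks shNT and red sh1487, filled circles lines without and open squares lines with the cDNA; PCDH17 and DSC2 separate the blue from the red marks downwards and L1CAM upwards, while DSG2, DSP and NECTIN3 lie close together.

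Without doxycycline the sh1487 and shNT lines differed most in 3 members. PCDH17, a protocadherin (chromosome 13, 57631810 to 57729311 on the plus strand), was high in the shNT lines and low in the sh1487 lines. It stood at 69.3, 76.6 and 65.9 CPM in the 3 shNT libraries without doxycycline and at 0.401, 0.496 and 0.442 CPM (27 to 39 reads) in the sh1487 libraries. The groups did not overlap, with a log2 difference of -5.63 (SE 0.088, adjusted p = 4.70e-23) and a 158-fold ratio of mean CPM. DSC2, a desmosomal cadherin, stood at 68.6, 64.5 and 57.1 CPM in shNT and at 1.37, 1.03 and 1.39 CPM in sh1487, a difference of -4.83 (SE 0.146, adjusted p = 5.28e-18) or 50.3-fold. L1CAM (chromosome X, 153861514 to 153886174 on the minus strand), a neural adhesion protein of the immunoglobulin superfamily, went the other way, at 0.130, 0.143 and 0.0710 CPM (5 to 10 reads) in shNT and 6.27, 4.76 and 5.11 CPM in sh1487, 47.0-fold higher (log2 2.51, adjusted p = 1.17e-17). For none of the 3 genes did a library of one line reach the range of the other.

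EPCAM (chromosome 2, 47345158 to 47387601 on the plus strand), an epithelial adhesion protein, was 3.62-fold lower in sh1487, at 0.568 ± 0.092 against 2.06 ± 0.287 CPM (log2 -0.96, adjusted p = 4.18e-09). NECTIN3 (chromosome 3, 111070071 to 111275563 on the plus strand), which binds other nectins across the junction, was at 26.2 ± 1.20 against 35.4 ± 1.19 CPM (-0.42, adjusted p = 2.45e-04). CDH2, DSG2 and DSP did not pass the test, with 0.04 (adjusted p = 0.648), 0.06 (0.735) and -0.27 (0.0634). With the replicate number as a block, DSP passed it (adjusted p = 0.0309). It was also called when only the libraries compared set the spread, which gave 1 member higher and 5 lower. Of the 8 members tested, 1 was higher and 4 lower in sh1487, where 32.1% and 34.1% of all genes tested were called higher and lower, 66.2% in either direction. These differences exist without doxycycline, and the hairpin and the line that carries it cannot be told apart. Among other genes of these lists, CD44, a hyaluronan receptor, stood at 139 ± 0.90 CPM in shNT and 5.90 ± 0.20 in sh1487, and NCAM1, a neural cell adhesion molecule, at 17.6 and 0.595 CPM. PCDH18 was at 0.0182 CPM in shNT, below the level of 3 reads, and at 8.49 CPM in sh1487.

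Doxycycline in sh1487 without the cDNA moved 7 of the 8 tested members, 4 higher and 3 lower, with 37.4% and 37.5% of all tested genes called in those directions and 75.0% in either. The members' median log2 change was 0.15, against 0.01 over all genes tested. Since most tested genes were called in this comparison, the count does not set the members apart. CDH2, PCDH17, L1CAM and EPCAM passed the filter on low values through some of the groups only, and CDH1 failed it, so counts over the tested members describe them and support nothing. CDH1 reached 1 CPM in only 2 libraries, and its values come from the fit with no filter.

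**Figure D2:**
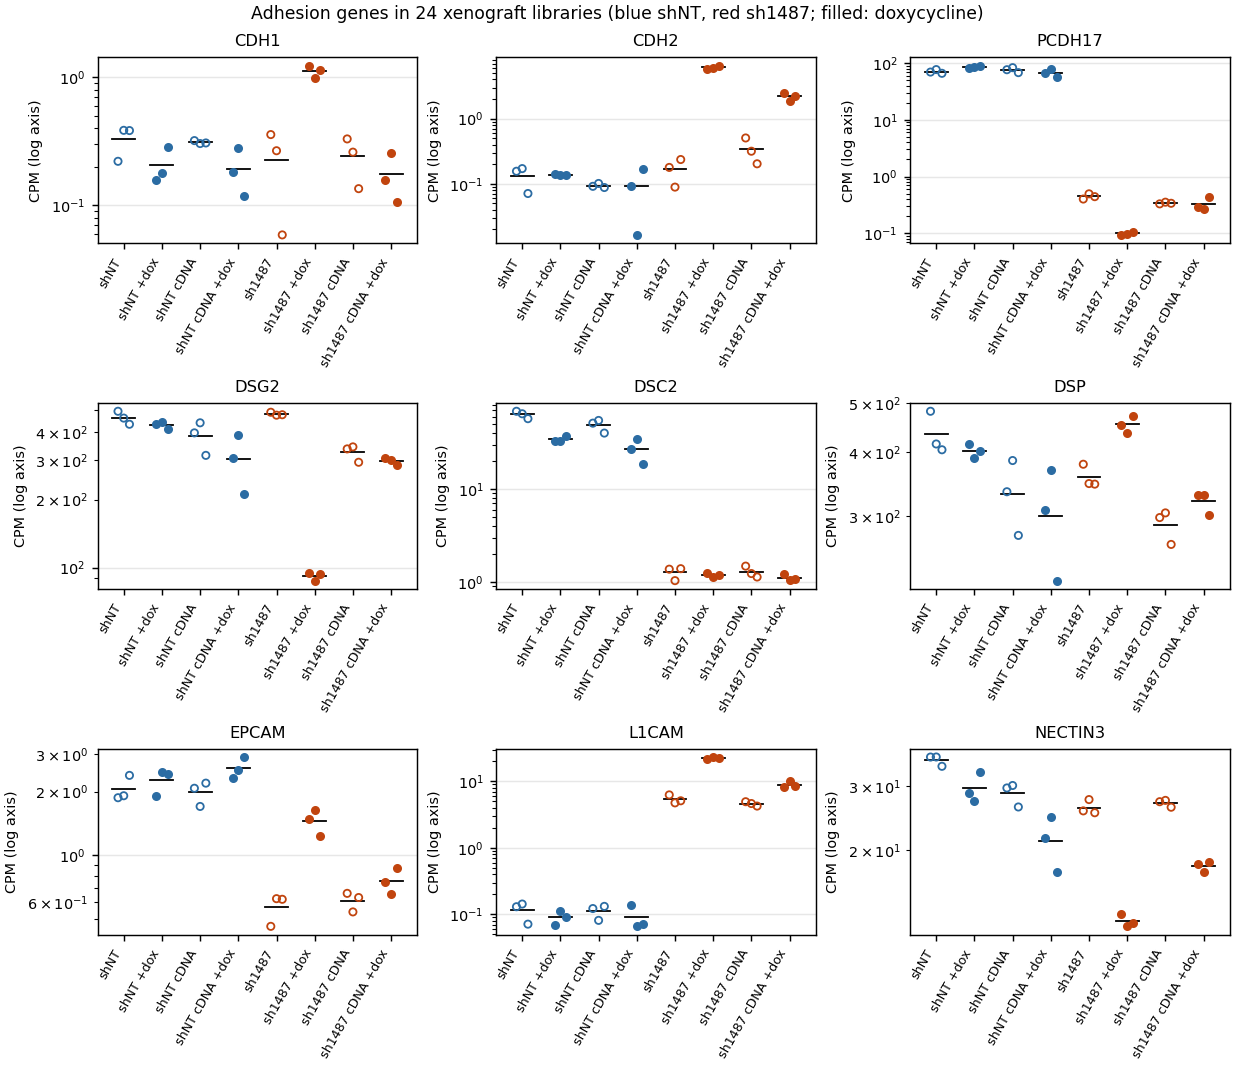
CPM of each gene (log axis, scale set per panel) in every library of the 8 groups, with a line at the group mean of 3 libraries. Open circles are libraries without and filled circles with doxycycline; blue is shNT and red sh1487. In sh1487 with doxycycline CDH1, CDH2 and L1CAM are at their highest and DSG2, NECTIN3 and PCDH17 at their lowest.

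CDH2 (N-cadherin, chromosome 18, 27950966 to 28177446 on the minus strand) is a classical cadherin of neural and mesenchymal cells. Its libraries held 0.178, 0.0890 and 0.236 CPM (7 to 16 reads) in sh1487 without doxycycline and 5.82, 6.0 and 6.52 CPM (428 to 489 reads) with it. The groups did not overlap, and the change was 2.61 on the log2 scale (SE 0.080, adjusted p = 4.73e-18), 36.4-fold in mean CPM. In shNT it stood at 0.133 ± 0.054 and 0.136 ± 0.0034 CPM, with a log2 change of 0.01 and overlapping libraries. The difference of the changes, sh1487 minus shNT, was 2.60 in limma (adjusted p = 5.60e-15) and 5.18 in edgeR (adjusted p = 5.75e-08).

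CDH1 (E-cadherin, chromosome 16, 68737225 to 68835548 on the plus strand) is the classical cadherin of epithelial cells. It held 0.357, 0.267 and 0.0589 CPM (4 to 24 reads) in sh1487 without and 1.23, 0.981 and 1.14 CPM (75 to 92 reads) with doxycycline, 4.91-fold higher without overlap. In the fit with no filter the change was 0.79 (SE 0.086, adjusted p = 2.15e-08), and its difference from shNT was 0.93 (adjusted p = 4.91e-07). In shNT it was at 0.330 ± 0.094 and 0.207 ± 0.067 CPM (-0.14, adjusted p = 0.214). At its highest CDH1 was at about 1 CPM, and without doxycycline both classical cadherins rested on at most 24 reads per sh1487 library.

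The desmosomal members parted. DSG2, a desmoglein, held 488, 473 and 476 CPM in sh1487 without doxycycline and 94.5, 87.6 and 93.6 CPM with it. It fell by 2.37 on the log2 scale (SE 0.138, adjusted p = 5.25e-13), or 5.21-fold, without overlap. In shNT it was at 461 ± 30.6 and 428 ± 15 CPM (-0.11, adjusted p = 0.585), and the difference of the changes was -2.26 (adjusted p = 7.86e-10). DSP (chromosome 6, 7541575 to 7586717 on the plus strand), the desmosome's keratin linker, held 379, 348 and 347 CPM without and 452, 437 and 472 CPM with doxycycline, 1.27-fold higher (log2 0.34, adjusted p = 0.0195). The call for DSP was lost when sh1487 doxycycline replicate 3, or sh1487 replicate 2 or 3 without doxycycline, was left out (adjusted p up to 0.0599). DSC2 did not pass the test in sh1487, at 1.26 ± 0.200 and 1.18 ± 0.052 CPM (-0.05, adjusted p = 0.763).

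In shNT without cDNA DSC2 had the largest change of the 8 tested members. It held 68.6, 64.5 and 57.1 CPM without and 32.7, 32.8 and 37.2 CPM with doxycycline, a fall of 1.85-fold (log2 -0.87, adjusted p = 7.91e-05) with no overlap. The fall recurred in the shNT line with cDNA, from 48.6 ± 7.67 to 26.7 ± 8.11 CPM (-0.87, adjusted p = 1.56e-04). That comparison keeps the call when each library is left out in turn (adjusted p up to 0.00188), but not when only its own 6 libraries set the spread (adjusted p = 0.0851). That last fit did not use the replicate numbers, within each of which DSC2 fell. The difference of the changes, sh1487 minus shNT, was 0.82 without and 0.76 with cDNA (adjusted p = 1.27e-03 and 4.62e-03). DSC2 is overlapped at its start by DSCAS, a noncoding gene on the opposite strand, which stood at 1.08 CPM in shNT and 7.98 CPM in sh1487 without doxycycline, opposite to DSC2. Whether the counting used strand is not given in the sources used here, so reads of the 2 genes cannot be told apart at the overlap.

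PCDH17 in sh1487 held 0.401, 0.496 and 0.442 CPM without and 0.0937, 0.0981 and 0.107 CPM (7 to 8 reads) with doxycycline, 4.49-fold lower (log2 -0.40, adjusted p = 3.65e-04). In shNT it was called higher, at 70.6 ± 5.49 and 85.0 ± 5.03 CPM (0.27, adjusted p = 0.0219), but this call was lost with a pseudocount of 0.1 and when any 1 of 4 libraries was left out (adjusted p up to 0.0970). Those were shNT doxycycline replicates 2 and 3 and shNT replicates 1 and 3 without it. The difference of the changes, sh1487 minus shNT, was -0.66 in limma (adjusted p = 6.75e-05) and -2.42 in edgeR (adjusted p = 3.76e-07).

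L1CAM rose in sh1487 from 5.38 ± 0.794 to 22.5 ± 0.933 CPM, with 21.5, 23.3 and 22.8 CPM in the 3 libraries with doxycycline. The change was 1.89 (SE 0.079, adjusted p = 1.35e-15), 4.19-fold, and in shNT, at 3 to 10 reads per library across both shNT lines, -0.03 (adjusted p = 0.795). EPCAM rose 2.55-fold in sh1487, from 0.461, 0.623 and 0.619 CPM to 1.49, 1.63 and 1.23 CPM (0.64, adjusted p = 1.17e-06), still below its 2.06 ± 0.287 CPM in shNT. NECTIN3 fell 2.05-fold in sh1487, from 25.6, 27.6 and 25.3 CPM to 13.4, 12.3 and 12.6 CPM (-0.98, adjusted p = 1.04e-09). In shNT it was also called lower, by less, at 35.4 ± 1.19 and 29.6 ± 2.86 CPM (-0.26, adjusted p = 0.0267), a call lost without any 1 of 4 libraries, shNT replicate 1 or 2 with or without doxycycline. The difference of the changes, sh1487 minus shNT, was -0.73 for NECTIN3 (adjusted p = 2.17e-05), 1.92 for L1CAM (9.49e-13) and 0.55 for EPCAM (6.39e-04). With edgeR these differences were -0.77 for NECTIN3 (adjusted p = 1.19e-05), 2.44 for L1CAM (2.59e-05) and 1.22 for EPCAM (4.89e-05).

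Doxycycline in shNT thus moved 3 of 8 tested members, 1 higher and 2 lower, where 18.5% and 18.7% of all genes tested were called in those directions and 37.2% in either. In the difference of the changes without cDNA, sh1487 minus shNT, all 8 tested members passed the test, 5 higher and 3 lower. Of all genes, 36.2% and 34.4% were called in those directions, 70.6% in either. The call for DSP (0.45, adjusted p = 0.0320) was lost in 5 of the 12 fits that left out 1 library (adjusted p of 0.0604 to 0.0899). Those were the fits without shNT replicate 1, without shNT doxycycline replicate 2, without sh1487 replicate 2 or 3, and without sh1487 doxycycline replicate 3. These hairpin comparisons share their control libraries with the comparisons above.

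**Figure D3:**
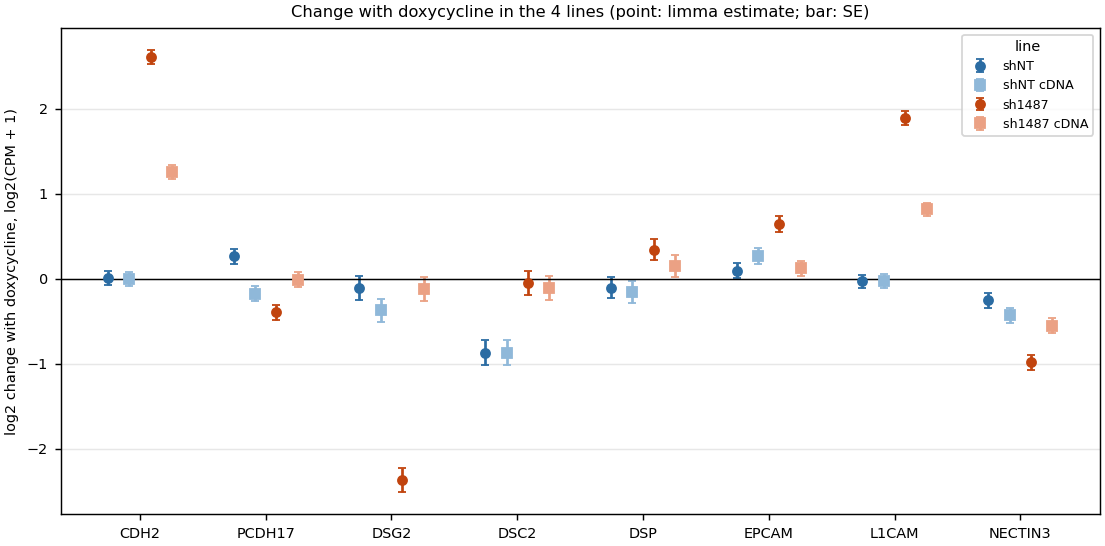
Log2 change with doxycycline on the log2(CPM + 1) scale for the 8 tested genes in the 4 lines, as limma estimates with SE bars from 24 libraries. For CDH2 and L1CAM the sh1487 point lies highest and the sh1487 cDNA point between it and the shNT points; for DSG2 only the sh1487 line without cDNA lies far below 0, and DSC2 falls in both shNT lines.

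With the cDNA, CDH2 and L1CAM rose with doxycycline in sh1487, NECTIN3 fell and 5 tested members did not pass the test, where 28.3% of all genes tested were called higher, 31.3% lower and 59.6% in either direction. CDH2 held 0.505, 0.316 and 0.203 CPM without and 2.49, 1.89 and 2.22 CPM with doxycycline, 6.44-fold higher (1.26, adjusted p = 1.49e-11). L1CAM went from 4.62 ± 0.348 to 8.92 ± 0.985 CPM, 1.93-fold (0.82, adjusted p = 1.28e-08). NECTIN3 went from 27.0 ± 0.618 to 18.1 ± 0.584 CPM (-0.55, adjusted p = 1.44e-05). DSG2 was at 324 ± 26.9 and 297 ± 10.9 CPM (-0.12, adjusted p = 0.468), EPCAM at 0.610 ± 0.063 and 0.755 ± 0.109 CPM (0.12, adjusted p = 0.246), PCDH17 at 0.340 ± 0.012 and 0.333 ± 0.096 CPM (-0.01, adjusted p = 0.927) and CDH1 at 0.242 ± 0.099 and 0.174 ± 0.077 CPM. DSP stood at 289 ± 21.7 and 321 ± 16.4 CPM (0.15, adjusted p = 0.309).

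The test of the difference itself, with minus without the cDNA, was called for 6 of 8 members, 3 higher and 3 lower, against 27.2% and 32.9% of all genes and 60.1% in either direction. DSG2 differed by 2.25 (adjusted p = 1.89e-09), CDH2 by -1.35 (1.02e-09), L1CAM by -1.07 (3.30e-08), EPCAM by -0.52 (1.36e-03), NECTIN3 by 0.43 (5.15e-03) and PCDH17 by 0.38 (0.0111). With edgeR the differences were 2.25 for DSG2, -2.55 for CDH2, -1.12 for L1CAM and -1.06 for EPCAM. NECTIN3 differed by 0.45 and PCDH17 by 2.08 there, so the order in size depends on the scale. For each of these 6 the change with the cDNA was smaller in size than the change without it. In the fit with no filter CDH1 differed by -0.87 (adjusted p = 2.12e-06). DSC2 and DSP did not pass the test, at -0.06 (0.826) and -0.19 (0.381).

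In the shNT line with cDNA, doxycycline was called for EPCAM higher and NECTIN3, DSG2 and DSC2 lower, with 16.3% and 15.6% of all genes called in those directions and 31.9% in either. NECTIN3 went from 28.7 ± 2.09 to 21.2 ± 3.64 CPM (-0.43, adjusted p = 1.11e-03), a call lost when only the 6 libraries compared set the spread (0.117). DSG2 went from 383 ± 62.9 to 302 ± 88.1 CPM (-0.37, adjusted p = 0.0445) with overlapping libraries. When only the 6 libraries compared set the spread, the calls for DSG2, EPCAM, NECTIN3 and DSC2 were all lost (adjusted p of 0.342, 0.157, 0.117 and 0.0851). That fit did not use the replicate numbers. By replicate number DSG2 went from 395 to 305, from 438 to 388 and from 314 to 212 CPM. EPCAM, NECTIN3 and DSC2 also kept their direction within each replicate number, though the labels give no pairing. Without doxycycline replicate 3 the change of DSG2 was -0.14, and the call was also lost without doxycycline replicate 1, without replicate 1 or 2 of the uninduced group, and with edgeR (adjusted p = 0.0610). EPCAM went from 1.99 ± 0.257 to 2.59 ± 0.297 CPM (0.27, adjusted p = 0.0293), a call lost with edgeR (0.0579) and when both libraries numbered 3 were left out (0.0830), and also without doxycycline replicate 3 or uninduced replicate 2 alone (adjusted p up to 0.173). Leaving out both libraries left 3 members called lower, and EPCAM no longer passed. The difference of the doxycycline changes, sh1487 minus shNT, was called higher with the cDNA for CDH2 (1.26, adjusted p = 1.30e-08), L1CAM (0.84, 3.22e-06) and DSC2. Of all genes, 22.3% were called higher, 24.6% lower and 46.9% in either direction. With edgeR the difference was 2.83 for CDH2 (adjusted p = 0.00292) and 1.28 for L1CAM (0.0324), and DSC2 lost its call (0.0773). The level of DSC2 with the cDNA was lower in sh1487, at 1.28 CPM without and 1.11 CPM with doxycycline, than in shNT, at 48.6 and 26.7 CPM.

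The lines with and without the cDNA were also compared without doxycycline. In sh1487 limma called 1 of the 8 members, DSG2, from 479 ± 7.75 to 324 ± 26.9 CPM (-0.57, adjusted p = 4.77e-03), where 10.3% of all genes were called lower, 13.3% higher and 23.7% in either direction. CDH2 held 2.03-fold more CPM with overlapping libraries (0.20, adjusted p = 0.0807), and edgeR on recovered reads called it (adjusted p = 0.0446), as did limma without replicate 3 of the line with cDNA (0.0277). L1CAM was called lower without replicate 2 of the line without cDNA (-0.25, adjusted p = 0.0444). When only the libraries compared set the spread, 2 members were called lower and 0 higher. In shNT limma called 0 of the 8 tested members, against 5.46% of all genes (2.39% higher, 3.07% lower). An unadjusted p under 0.05 was found for 3 members and for 3230 of all 13832 genes. With edgeR 1 member was called, NECTIN3, and 755 genes in all. Without replicate 2 of the line with cDNA, limma called NECTIN3 (adjusted p = 0.0453) and DSP (0.0275), and 1101 genes in all. The replicate numbers were taken to pair the samples in that comparison from correlations of 0.105, 0.165 and 0.648, while the labels give no pairing. A fit with the replicate block within its 6 libraries was added after seeing the data. In that fit limma called DSC2 (adjusted p = 0.0101), NECTIN3 (0.0218) and DSP (0.0259), all lower with the cDNA, and 1512 of the 13832 genes in all.

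Genes on lists of related pathway members moved in both directions with doxycycline in sh1487 without cDNA. The lists include members described above, and the catenin list includes CTNNB1. Their counts and medians therefore partly repeat the results above, and JUP is in both the catenin and the desmosome list. Of the 22 cadherin genes tested, 9 rose, 6 fell and 7 did not pass, where 37.4% of all genes tested rose and 37.5% fell. The list's median log2 change was 0.09, against 0.01 over all genes tested. FAT4, an atypical cadherin, rose from 12.7 ± 0.85 to 124 ± 7.2 CPM (3.19, adjusted p = 2.66e-14), while its relative FAT1 fell from 271 ± 11 to 72.2 ± 4.7 CPM (-1.90, adjusted p = 2.06e-10). CDH12 rose from 26.4 to 51.4 CPM (0.94, adjusted p = 2.71e-10), yet fell with the cDNA present, from 30.3 to 16.8 CPM (-0.82, adjusted p = 1.03e-08). CDH17, the intestinal cadherin, chosen after its values were seen, fell in all 4 lines, from 28.8 to 12.2 CPM in shNT and from 9.70 to 3.37 CPM in sh1487.

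Of 10 catenins and cadherin partners tested, 6 rose and 3 fell (37.4% and 37.5% of all genes), with a median of 0.37. JUP rose from 61.8 ± 7.7 to 408 ± 8.5 CPM (2.71, adjusted p = 8.49e-17) and with the cDNA from 48.1 to 137 CPM (1.48, adjusted p = 2.53e-11). CTNNA2, the neural α-catenin, rose from 48.4 ± 2.1 to 216 ± 2.4 CPM (2.14, adjusted p = 2.00e-18), and PKP4 fell from 426 ± 11 to 114 ± 2.0 CPM (-1.89, adjusted p = 7.47e-20). CTNNAL1, a relative of α-catenin, fell from 120 to 52.5 CPM (-1.17, adjusted p = 1.96e-13). JUP did not pass the test in shNT, at 101 and 85.4 CPM (adjusted p = 0.0694).

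Of 10 desmosome genes tested, 5 rose and 4 fell in sh1487 without cDNA (37.4% and 37.5% of all genes), with a median of 0.06. DSG1, DSG2, DSG4 and DSC1, which are desmosomal cadherins, fell, while DSC2, the other desmosomal cadherin tested, did not pass the test. JUP, PKP2, PPL, PERP and DSP rose, DSP with the limit given above. DSG4 fell from 8.90 to 0.311 CPM (-2.92, adjusted p = 9.48e-15), DSG1 from 4.03 to 0.692 CPM (-1.57, adjusted p = 7.03e-13) and DSC1 from 14.9 to 2.71 CPM (-2.11, adjusted p = 3.41e-09). PKP2, a plakophilin, rose from 115 to 173 CPM (0.58, adjusted p = 3.30e-05), and PPL, periplakin, from 3.18 to 8.45 CPM (1.18, adjusted p = 4.10e-09). In shNT 5 of the 10 were called lower, where 18.7% of all genes were, and DSC1, DSG1 and DSG4 were among them, DSC1 from 7.13 to 2.20 CPM. The changes with doxycycline differed between the hairpins, sh1487 minus shNT, by -2.39 for DSG4 (adjusted p = 2.37e-10) and by -1.17 for DSG1 (5.35e-08). The 5 desmosomal cadherins measured lie together on chromosome 18, where DSC2 (31058840 to 31102522, minus strand) and DSG2 (31498043 to 31549008, plus strand) are 395.52 kb apart with DSC1, DSG1 and DSG4 between them. That position was looked up after the values were seen.

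**Figure D4:**
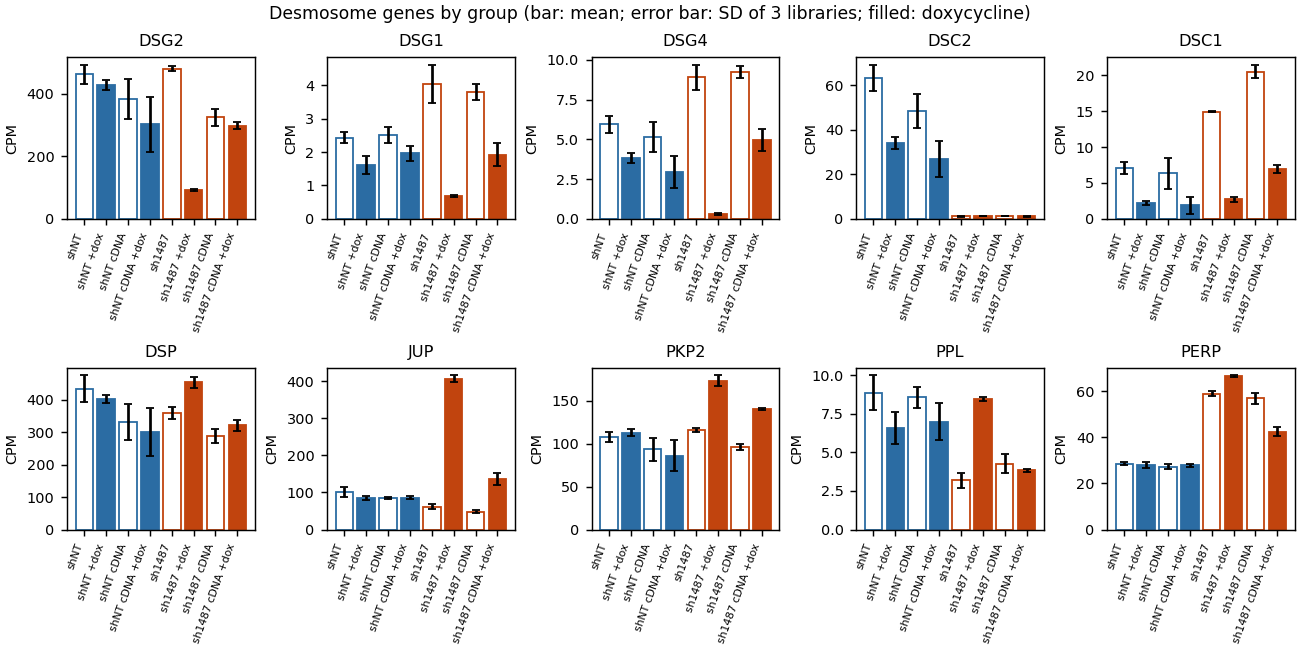
Mean CPM (bars, axis from 0) with SD over 3 libraries for 10 desmosome genes in the 8 groups; open bars are without and filled bars with doxycycline, blue shNT and red sh1487. DSG2, DSG1 and DSG4 drop in sh1487 with doxycycline, DSC2 is high only in the shNT lines, and JUP reaches 408 CPM in sh1487 with doxycycline.

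Of 8 nectins and nectin-like genes tested, 4 rose and 3 fell (37.4% and 37.5% of all genes), with a median of 0.16. CADM2 rose from 4.70 to 35.3 CPM (2.67, adjusted p = 2.64e-18) and NECTIN2 from 25.3 to 65.1 CPM (1.33, adjusted p = 3.63e-12). CADM4 rose from 14.6 to 29.8 CPM (0.99, adjusted p = 3.16e-10), whereas NECTIN1 fell, from 72.6 to 29.8 CPM (-1.25, adjusted p = 5.69e-11). With the cDNA NECTIN1 rose instead, from 62.3 to 83.0 CPM (0.41, adjusted p = 8.95e-04). Of 8 protocadherins tested, 4 rose and 4 fell (37.4% and 37.5% of all genes), with a median of 0.46. PCDH7 rose from 1.35 to 37.0 CPM (4.02, adjusted p = 1.75e-19) and PCDH9 from 88.1 to 327 CPM (1.88, adjusted p = 1.39e-13), opposite to PCDH17. PCDH15 rose from 0.147 to 1.70 CPM (1.23, adjusted p = 2.71e-12) and PCDH11X from 7.63 to 40.7 CPM (2.27, adjusted p = 2.73e-11).

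Of 17 EPCAM, L1 and immunoglobulin-type adhesion genes tested, 10 rose and 5 fell in sh1487 without cDNA (37.4% and 37.5% of all genes), with a median of 0.32. BCAM, a laminin receptor, rose from 28.1 to 160 CPM (2.47, adjusted p = 1.43e-15). CD44 fell from 5.90 to 0.507 CPM (-2.20, adjusted p = 9.14e-19) and CXADR, a junctional receptor, from 40.3 to 12.6 CPM (-1.60, adjusted p = 1.66e-13). Of 14 integrins, 2 rose and 8 fell (37.4% and 37.5% of all genes), with a median of -0.47. ITGA8 fell from 3.26 to 0.325 CPM (-1.68, adjusted p = 1.21e-13), and with the cDNA from 3.09 to 0.364 CPM (-1.58, adjusted p = 2.66e-12). ITGA2, a collagen receptor chain, fell from 217 to 25.1 CPM (-3.06, adjusted p = 7.63e-11), and ITGA5, a fibronectin receptor chain, from 56.6 to 35.4 CPM (-0.66, adjusted p = 9.12e-10). ITGA3, a laminin receptor chain, rose from 2.97 to 8.78 CPM (1.31, adjusted p = 7.74e-10). Of 12 tight junction genes, 5 rose and 3 fell (37.4% and 37.5% of all genes), with a median of 0.19. Among them were CGN (cingulin) from 31.6 to 74.5 CPM (1.21, adjusted p = 4.01e-12) and CLDN4 from 2.15 to 5.68 CPM (1.09, adjusted p = 1.35e-09), both higher. MARVELD3 rose from 1.30 to 3.09 CPM (0.84, adjusted p = 2.04e-08) and CLDN12 from 30.7 to 43.2 CPM (0.48, adjusted p = 3.83e-05).

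A list on the switch between epithelial and mesenchymal states had 7 tested genes. Of these, 1 rose and 5 fell in sh1487 without cDNA (37.4% and 37.5% of all genes), with a median of -0.51. TCF3 fell from 151 to 87.4 CPM (-0.78, adjusted p = 6.66e-08) and ZEB2 from 91.3 to 55.3 CPM (-0.71, adjusted p = 6.71e-05). SNAI1 fell from 14.0 to 9.35 CPM (-0.53, adjusted p = 1.07e-05) and PRRX1 from 160 to 112 CPM (-0.51, adjusted p = 4.86e-07). The 1 that rose was ZEB1, named after its values were seen, from 22.5 to 34.3 CPM (0.59, adjusted p = 7.85e-04). ZEB2 was also lower with doxycycline in shNT, at 104 and 59.0 CPM. Beside the rise of CDH1 and EPCAM, the epithelial markers KRT8 (148 to 428 CPM, 1.52, adjusted p = 1.19e-13) and KRT20 (9.26 to 51.7 CPM, 2.36, adjusted p = 3.27e-18) rose in the same libraries, and CDX2 fell (-0.95, adjusted p = 1.76e-09). Of the 5 epithelial markers tested, 4 rose, VIL1 and KRT18 among them, and 1 fell (37.4% and 37.5% of all genes). Beside the rise of L1CAM and CDH2, the neuroendocrine marker SYP rose (1.06, adjusted p = 7.22e-13) and CHGA fell (-0.27, adjusted p = 4.52e-03). Of the 4 neuroendocrine markers tested, 2 rose, SYP and ENO2, 1 fell, and CHGB did not pass the test. The part of these markers in the members' changes was not tested.

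Between the uninduced sh1487 lines, 13.3% of all genes tested were higher and 10.3% lower with the cDNA. Besides DSG2, described above, the 2 genes with the smallest p were taken from each of 6 lists. GPA33, an intestinal surface antigen, was higher with the cDNA, at 5.38 against 2.46 CPM (0.89, adjusted p = 2.46e-08), and CDH6 at 2.19 against 0.904 CPM (0.74, adjusted p = 4.41e-06). PCDH18 was higher (0.44, adjusted p = 3.19e-05), as were CD44 (0.43, adjusted p = 3.21e-05) and PCDH7 (0.59, adjusted p = 2.33e-04). JUP (-0.35, adjusted p = 0.0113), TCF3 (-0.35, adjusted p = 6.81e-03), CELSR2 (-0.38, adjusted p = 0.0293) and CADM4 (-0.23, adjusted p = 0.0479) were lower. NECTIN1 and ZEB2 did not pass the test (adjusted p = 0.106 and 0.164).

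Genes with the most similar pattern were ranked by Pearson's r over the 8 group means of log2(CPM + 1), as a description. For CDH2 these were ARHGEF3, SRGAP1 and S100A4 (r of 0.999, 0.998 and 0.997), and for L1CAM CELF3, STMN2 and NYNRIN (0.999, 0.998 and 0.998). For DSG2 they were ITGA2, RAD50 and THBS4 (0.989, 0.988 and 0.983). For DSC2 they were TSHZ2, MARVELD2 and HLA-C (0.999, 0.997 and 0.996), where MARVELD2 encodes tricellulin of the tight junction. PCDH17 ran with LITAF, EPDR1 and ERBB3 (each 0.998), EPCAM with GSTZ1, NKX2-8 and SLC22A17 (0.998, 0.992 and 0.992), and NECTIN3 with ZFP64, CC2D2A and AGBL5 (0.989, 0.987 and 0.985). The 8 points share their lines, libraries and scaling, and no p is given.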

How the data were processed

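Per the labels' protocols, libraries came from poly(A) RNA with a stranded TruSeq kit and were read on a NovaSeq S4. The submitters' processing notes name GRCh38, edgeR 4.0.2, Subread 2.4.2, featureCounts, STAR 2.7.7a and Trimmomatic 0.39, without roles or order. The deposited table holds a signal per gene and library, CPM scaled by the authors to an effective library size, since the columns sum to 933631.7 to 1137971.1. Dividing by the value of 1 read gave whole reads for 100% of values within 0.001. The planned test assumed CPM and was kept.

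The 24 libraries were fitted as 8 group means with limma 3.58.1 (R 4.3.3) trend on log2(CPM + 1), keeping genes at 1 CPM or more in at least 3 libraries (13832 of 14119, 287 removed), with Benjamini-Hochberg adjustment over all genes and a threshold of 0.05. The script was tested on simulated data. Alternatives were DESeq2 1.42.0 size factors, edgeR 4.0.16 quasi-likelihood on recovered reads, a pseudocount of 0.1, no filter, a filter at a mean of 5 CPM, a fit of the compared libraries alone, the replicate block, both shNT cDNA libraries numbered 3 left out, and each library left out. Same-numbered libraries deviated together with every correlation over 0.1 (0.105, 0.165 and 0.648) only for the cDNA in shNT, so that the numbers were taken to pair samples there. The labels give no pairing. For doxycycline in shNT with cDNA, not taken as paired, the correlations were 0.0169, 0.821 and 0.840. The members, the lists and the tests were chosen with earlier results of these data known. Named genes were the 9 members, CTNNB1, the 4 genes of each list with the smallest p for doxycycline in sh1487 without cDNA, for 6 of the lists also the 2 with the smallest p for the cDNA in sh1487, the 3 genes most like each member whose group means differed at least 2-fold, and the listed cell type markers. Outside that rule, CDH17, DSC1, PKP2, PPL, PERP, NCAM1, ZEB1 and DSCAS were named after their values were seen. Gene positions are from GENCODE release 29, which holds 14106 of the 14119 IDs; promoters are from RefSeq.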

Additional observations from a re-analysis of the deposited data

Results flagged for a closer look

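The response to doxycycline differed between the hairpins without the cDNA, by the interaction term in limma, for CDH2 (log2 difference, sh1487 minus shNT, 2.60), L1CAM (1.92), DSC2 (0.82), EPCAM (0.55) and DSP (0.45), all positive, and for DSG2 (-2.26), NECTIN3 (-0.73) and PCDH17 (-0.66), all negative. DSC2 did not rise in sh1487 (-0.05, not called) but fell in shNT (-0.87). DSP is the least secure of these, since 5 of 12 fits with 1 library left out lost the call. With edgeR the difference was 5.18 for CDH2 and -2.42 for PCDH17, so the order in size depends on the scale.

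With the cDNA the response to doxycycline differed between the hairpins for CDH2 (1.26), L1CAM (0.84) and DSC2 (0.76), and the DSC2 call was lost with edgeR.

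Within sh1487 the response with the cDNA differed from that without it for CDH2 (-1.35), L1CAM (-1.07), EPCAM (-0.52), PCDH17 (0.38), NECTIN3 (0.43) and DSG2 (2.25). With edgeR the difference was -2.55 for CDH2 and 2.08 for PCDH17, so here too the order depends on the scale.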

How the results depend on the processing

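Of 1196 values of members under alternatives, 1127 kept their direction and their side of the threshold, 32 lost the call, 22 gained it and 15 changed sign. All sign changes came from leaving out 1 library and concerned values that were not called. The counts of genes called moved most in 3 comparisons. For doxycycline in shNT with cDNA, 4406 genes became 547 when only the libraries compared set the spread, and 2571 to 6298 when each library was left out. For the cDNA in sh1487, 3273 became 5093, and 2173 to 2597. For the cDNA in shNT, 755 became 62, 1512 with the replicate block within its 6 libraries, and 216 to 1101. Fewer libraries in the fit are part of that construction. With only the compared libraries the count rose for the cDNA in sh1487 and fell for the shNT comparisons named here, and the cause was not tested.

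Leaving out 1 library gave, as log2 ranges for values that changed sign, -0.034 to 0.030 for CDH2 with doxycycline in shNT, -0.054 to 0.045 for CDH2 and -0.32 to 0.039 for DSP in shNT with cDNA, and -0.069 to 0.023 for PCDH17 in sh1487 with cDNA. For DSC2 the difference with minus without cDNA ran from -0.11 to 0.018. For the cDNA in sh1487 the ranges were -0.010 to 0.072 for EPCAM and -0.065 to 0.059 for DSC2, and in shNT -0.032 to 0.016 for L1CAM and -0.081 to 0.045 for EPCAM. With the replicate block over all libraries, doxycycline in sh1487 without cDNA still called 4 members higher and 3 lower (10502 genes in all). It added DSP for the line difference and for the cDNA in sh1487 (adjusted p = 0.0411), and NECTIN3 and DSP for the cDNA in shNT (0.0435 and 0.0311), and changed no other member's call. CDH1, CDH2 in shNT, L1CAM in shNT and PCDH17 in sh1487 rest on few reads, which limits their precision.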
